A study of Mus musculus with 12 samples.

Results

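Aminoacyl-tRNA synthetases are the enzymes that attach each amino acid to its transfer RNA, and 37 genes that encode them were followed in hearts of mice fed without leucine, isoleucine and valine, the branched-chain amino acids (BCAA). The genes were taken by name. Of the 37, 36 were found under their own symbol and 1, the methionine enzyme Mars1, under its older symbol Mars, among 16246 genes listed in any of 4 deposited tables. The set holds 21 cytosolic enzymes and 16 that serve mitochondria only, and 6 of the 37 charge the transfer RNAs for leucine, isoleucine or valine. Gars and Kars, whose products act in both compartments, were counted as cytosolic. All 37 had a mean normalized read count of at least 10 in every table.

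The hearts came from male C57Bl/6J mice aged 12 weeks and formed 4 groups of 3 samples: transverse aortic constriction (TAC, a surgical narrowing of the aorta that overloads the left ventricle with pressure) on the BCAA-free diet, sham surgery on the BCAA-free diet, TAC on a control diet that held all essential amino acids including BCAA, and sham surgery on that control diet. Both diets began 4 days before surgery, and hearts were taken 2 weeks after it. The labels leave unsaid whether hearts were pooled, so p-values measure the spread between these samples, which may in part be technical. Poly(A) RNA was sequenced, and between 13847107 and 52065900 reads per library were assigned to the genes of a table. Every library stands in 2 of the 4 tables, so the comparisons share samples. Within 3 groups 1 library stood apart, measured as the mean chi-square per gene between 2 libraries of a group. It was 59.4 and 67.2 for control diet TAC replicate 2, where the other pair of that group had 10.7, and 46.3 and 46.8 for control diet sham replicate 3, where the other pair had 11.5. For BCAA-free sham replicate 3 it was 15.4 or more against either of the others, where the other pair had 4.60. The TAC labels were checked with fetal-program genes: skeletal actin Acta1 was higher after TAC by 2.73 ± 0.31 (log2, SE) on the control diet and by 1.53 ± 0.13 on the BCAA-free diet. Markers that define the heart were present, with 10 of 10 cardiomyocyte genes listed in every table and no marker at 0. Among the markers of other cells, only lymphocyte and adipocyte lists were incomplete, with 2 of 7 and 4 of 5 genes listed.

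Each synthetase recognises 1 amino acid and its transfer RNAs, and the bifunctional Eprs joins the glutamate and proline enzymes in a single protein. Mitochondria translate their own few messages, for subunits of the oxidative phosphorylation system on which the beating heart relies, with a separate set of enzymes encoded in the nucleus. When an amino acid runs short, uncharged transfer RNA activates the kinase GCN2, and the transcription factor ATF4 then raises many cytosolic synthetase genes through C/EBP-ATF response elements.

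The promoters that hold that element are shown because it is the letter pattern through which a shortage of amino acids is known to act on these genes. RefSeq promoters on build GRCm38.p6, from 250 bases before to 50 after the transcription start, were found for 28 members, 14 in each compartment. The element was searched as TGATGNAAN on both strands. It occurred in 3.95% of 32851 promoters and in 5 of the 14 cytosolic promoters but in 0 of the 14 mitochondrial ones. The 5 are the enzymes for alanine (Aars), glycine (Gars), isoleucine (Iars), threonine (Tars) and tyrosine (Yars), printed 5′ to 3′ on the gene's strand with the element in capitals on whichever strand it lies. Aars is chr8:111033709-111033858 on the plus strand, Gars chr6:55037950-55037998 on the plus strand, Iars chr13:49682116-49682144 on the plus strand, Tars chr15:11399659-11399694 on the minus strand and Yars chr4:129189886-129189914 on the plus strand.
Aars: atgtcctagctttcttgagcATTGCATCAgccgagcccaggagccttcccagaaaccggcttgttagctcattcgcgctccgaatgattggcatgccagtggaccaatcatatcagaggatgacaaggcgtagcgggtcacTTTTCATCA
Gars: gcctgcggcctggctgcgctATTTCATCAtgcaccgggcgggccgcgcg
Iars: ttgagcctggcactgtcagtATTGCATCA
Tars: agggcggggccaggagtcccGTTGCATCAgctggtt
Yars: agcggagcgacgagctcagcTGATGCAAC

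Of the mitochondrial promoters, 3 held GCATGCGC, the core of the site of NRF1, a regulator of nuclear genes for mitochondria. That core occurred in 2.71% of all promoters and in 0 of the 14 cytosolic ones, and it is in capitals in the enzymes for arginine (Rars2), valine (Vars2) and tryptophan (Wars2). This motif was chosen after values were seen, as were CCGGAAGT, found in Farsa, Mars and Rars2 and in 3.89% of all promoters, and TNAAGGTCA, found in 0 members and in 1.28% of all promoters. Rars2 is chr4:34614886-34614933 on the plus strand, Vars2 chr17:35667593-35667658 on the minus strand and Wars2 chr3:99141006-99141053 on the plus strand. A match is a run of letters and not a measured binding site.
Rars2: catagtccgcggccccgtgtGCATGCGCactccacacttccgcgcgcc
Vars2: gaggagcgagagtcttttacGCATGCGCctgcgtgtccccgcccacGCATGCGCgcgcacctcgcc
Wars2: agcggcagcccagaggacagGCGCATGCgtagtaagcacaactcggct

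Per length, the mitochondrial leucine enzyme Lars2 had the highest level of the 37 in every group. Its mean normalized read count per kilobase of longest transcript was 4117 ± 975 in BCAA-free TAC hearts, 3313 ± 142 in BCAA-free sham hearts, 3450.1 ± 658 in control diet TAC hearts and 4689 ± 94.6 in control diet sham hearts (SD, n = 3 each). The lysine enzyme Kars came next, at 1914, 1807, 1205 and 1406 per kilobase in the same groups, and the asparagine enzyme Nars followed. The mitochondrial enzymes for proline, methionine and tryptophan, Pars2, Mars2 and Wars2, were the lowest in every group, between 43.6 and 70.6 per kilobase. The place of Mars2 rests on a longest transcript of 11294 bases, where the median of the mitochondrial set was 3490. The median gene of the cytosolic set stood above that of the mitochondrial set, at 586 against 321 per kilobase in BCAA-free TAC hearts and at 529 against 271 in control diet sham hearts. Lars2 is far above every other mitochondrial member, and its counts carry a doubt that is described with its results. Levels here compare genes within a group; the BCAA-free and the control diet groups were normalized in separate tables.

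On the control diet the estimates of the mitochondrial enzymes were all lower in TAC than in sham hearts, though 1 of them passed the test, and those of the cytosolic enzymes lay on both sides of 0. All 16 mitochondrial fold changes were below 0, where 50.6% of all genes were, with a median of -0.25 on the log2(value + 1) scale and a range of -0.59 to -0.02. The 21 cytosolic fold changes had a median of -0.00, with 10 above and 11 below 0, and the median of all genes tested was also -0.00. In 10 of the 16 mitochondrial genes all 3 TAC samples lay below all 3 sham samples, as did 17.4% of all 15397 genes tested. The sizes are small, and 1 of the 37 genes passed an adjusted p of 0.05 (limma, Benjamini-Hochberg over all genes tested), against 4.04% of all genes, or 1.09% for lower calls. A count of 1 is near that background, so the calls alone do not set the synthetases apart here.

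The gene called was Cars2, the mitochondrial cysteine enzyme (chromosome 8, 11513977 to 11550783). It had 914, 735 and 958 normalized counts in control diet TAC hearts, against 1269, 1216 and 1431 in control diet sham hearts. The groups did not overlap, and Cars2 was 0.59 ± 0.13 lower (SE; adjusted p = 0.0445). The call rested on single libraries: without control diet TAC replicates 2 or 3 the adjusted p was 0.096 and 0.0812, and without control diet sham replicates 1, 2 or 3 it was 0.114, 0.107 and 0.0708, while it was 0.0461 without control diet TAC replicate 1. The span of Cars2, introns included, overlaps that of Naxd, a repair enzyme gene on the opposite strand, over 984 bases. Whether exons overlap there was not checked. Reads of the overlap cannot be told apart, since the use of strand in counting is not given in the sources used here. Naxd differed by -0.19 ± 0.12 in this comparison (limma adjusted p = 0.349).

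The next smallest p-values belonged to the mitochondrial tyrosine and serine enzymes. Yars2 had 558, 527 and 611 normalized counts in control diet TAC hearts, against 829, 697 and 923 in control diet sham hearts (-0.52 ± 0.13, adjusted p = 0.0547). Sars2 had 345, 308 and 333 in control diet TAC hearts, against 408, 476 and 449 in control diet sham hearts (-0.43 ± 0.12, adjusted p = 0.0628). Neither overlapped between the groups and neither passed. Kars, which serves both compartments, had 2975, 2735 and 3031 counts in control diet TAC hearts, against 3224, 3451 and 3531 in control diet sham hearts (-0.22 ± 0.099, adjusted p = 0.176), whereas Gars differed by 0.05 ± 0.099 (adjusted p = 0.773). The lowest cytosolic fold change, -0.43 with an adjusted p of 0.094, was that of Tarsl2, a threonine enzyme paralog.

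The library with the lowest mitochondrial set was control diet TAC replicate 2. Averaged over each set on the log2 scale, the mitochondrial level minus the cytosolic one was -0.04, -0.28 and -0.07 in control diet TAC replicates 1 to 3, against 0.14, 0.13 and 0.12 in control diet sham hearts. All 3 TAC libraries lay below all 3 sham libraries. Without replicate 2 the median of the mitochondrial set was -0.18, with 15 of 16 genes below 0. Cell markers moved with this contrast: the summed level of 8 fibroblast markers ran from 45462 to 111245 in control diet TAC hearts, against 23056 to 26302 in control diet sham hearts, and that of 10 cardiomyocyte markers from 1941353 to 2313033 against 2474934 to 2639309. The cardiomyocyte markers did not all go 1 way, with 8 below 0 and 2 above. Of the 10, 4 lay below the sham samples without overlap and 2 above, beside 17.4% and 17.8% of all genes. In bulk tissue, fewer cells of a type and less RNA per cell cannot be told apart, and the part of these markers in the result was not tested. When the libraries were scaled to their totals alone the median of all genes moved to 0.14, with the mitochondrial set at -0.10 and the cytosolic set at 0.15, so the gap between the sets stayed while its place relative to 0 moved.

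**Figure D1:**
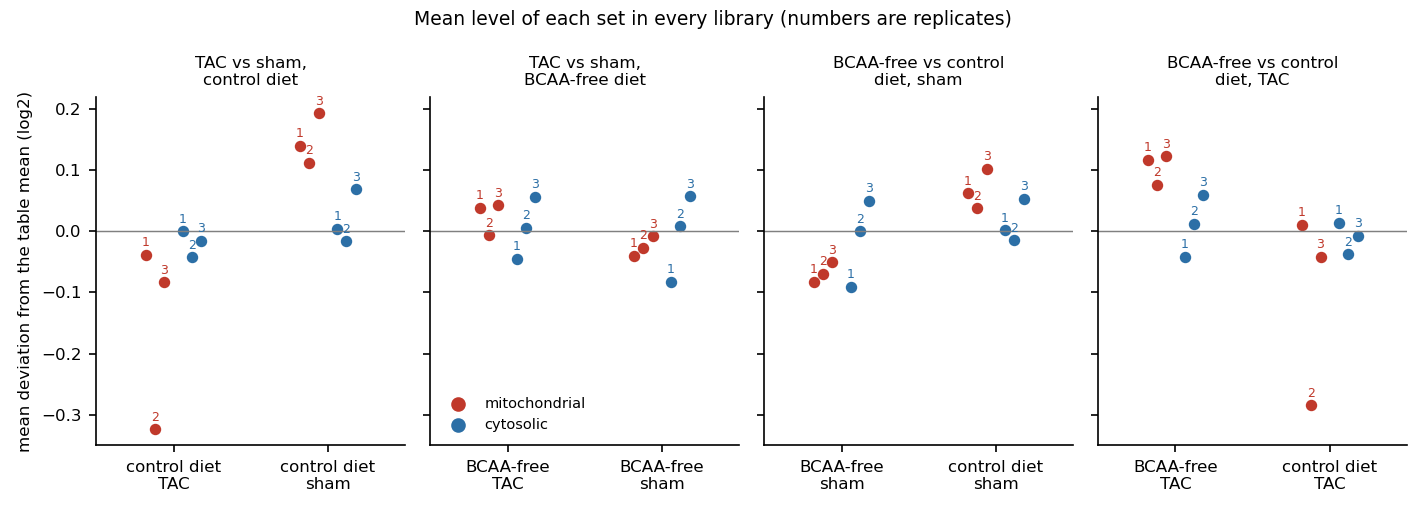
Mean level of the 16 mitochondrial (red) and 21 cytosolic (blue) synthetase genes in every library, as the log2 deviation from each gene's mean in its table; each point is 1 library and its number the replicate. On the control diet the mitochondrial set of TAC replicate 2 sits lowest, at -0.32, while the cytosolic sets stay near 0.

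On the BCAA-free diet, TAC and sham hearts were close in both sets. The median fold change was 0.05 for the mitochondrial genes, with 10 above and 6 below 0 (50.2% of all genes were above), and 0.00 for the cytosolic genes. No synthetase was called by limma, edgeR or DESeq2, where limma called 6.23% of all 15670 genes tested, and 3 of the 37 had an unadjusted p under 0.05, where 24.5% of all genes did. Those 3 were mitochondrial and did not share a direction. Sars2 had 578, 635 and 603 normalized counts in BCAA-free TAC hearts, against 479, 526 and 494 in BCAA-free sham hearts (0.28 ± 0.092, adjusted p = 0.0912). Fars2, the mitochondrial phenylalanine enzyme, had 2097, 1998 and 2149 in BCAA-free TAC hearts, against 1806, 1828 and 1803 in BCAA-free sham hearts (0.20 ± 0.069, adjusted p = 0.101). Mars2 had 569, 591 and 538 in BCAA-free TAC hearts, against 630.4, 742 and 674 in BCAA-free sham hearts (-0.27 ± 0.095, adjusted p = 0.109). The groups did not overlap in any of the 3, nor did they in 29.5% of all genes. Base composition moved with this contrast: within a library, the Spearman correlation across genes between GC content and the deviation from the table mean was 0.16 to 0.43 in BCAA-free TAC hearts, against -0.36 to -0.23 in BCAA-free sham hearts. Sars2 has a GC content of 60.1% and Mars2 of 38.8%, and with each library's GC and length trends removed their differences became 0.01 and 0.06. Fars2, at 52.3%, stayed between 0.13 and 0.20 in every alternative that kept all libraries, that one included. The part of base composition in the result was not tested.

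Without pressure overload, a single synthetase gene passed the test between the diets. The medians were -0.07 for the mitochondrial genes, with 13 of 16 below 0, and -0.02 for the cytosolic genes. In 5 of the 16 mitochondrial genes the BCAA-free samples lay below the control diet samples without overlap, as in 11.3% of all genes. With GC and length trends removed the mitochondrial median was -0.12, with 15 of 16 below 0. All 8 macrophage markers were also below 0, with a median of -0.59 and 6 without overlap, and their sum ran from 5369 to 6042 in BCAA-free sham hearts, against 6763 to 9861 in control diet sham hearts. Their part in the result was not tested. By the test, 1 of the 37 was called, where 0.624% of all 15217 genes tested were, or 0.375% for lower calls. That gene was Lars2 (chromosome 9, 123366927 to 123462666), the mitochondrial enzyme for one of the amino acids the diet lacked. It had 11097, 10471 and 10218 normalized counts in BCAA-free sham hearts, against 17237, 17931 and 17648 in control diet sham hearts. The groups lay far apart, with means of 10595 ± 453 and 17605 ± 349 (SD, n = 3 each), and Lars2 was lower by 0.73 ± 0.098 (adjusted p = 0.0104). The fold change lay between -0.77 and -0.71 when single libraries were left out. The adjusted p was 0.0698 without BCAA-free sham replicate 1 and 0.092 without replicate 2.

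In sham hearts, and after TAC on the control diet, Lars2 differed in the same direction as 2 genes that were picked out after values were seen. One is Gm42418, a locus known to collect reads of ribosomal RNA, and the other is Gm15564, an unnamed gene model that shares sequence with Lars2. Gm42418 had 24193, 23829.5 and 21236 normalized counts in BCAA-free sham hearts, against 44889, 40573 and 38025 in control diet sham hearts (-0.83 ± 0.11, adjusted p = 0.0104). Gm15564 had 61.7, 68.4 and 62.0 in BCAA-free sham hearts, against 114, 98.6 and 103 in control diet sham hearts (-0.71 ± 0.18, adjusted p = 0.0967). In neither gene did the diets overlap. The longest Lars2 transcript, of 3894 bases, shares 72 bases, at positions 3278 to 3349, with Gm15564 at 98.6% identity, and has no match to Gm42418. After TAC on the control diet the 3 again differed in 1 direction: Lars2 had 15528, 10579 and 14197 counts in control diet TAC hearts, against 17837, 18510.1 and 18432 in control diet sham hearts (-0.46 ± 0.15, adjusted p = 0.0953), with differences of -0.54 ± 0.16 for Gm42418 and -0.75 ± 0.20 for Gm15564. In the other pairwise comparisons the 3 parted. For TAC on the BCAA-free diet Lars2 was at 0.29, Gm42418 at -0.05 and Gm15564 at 0.21, and for the diet after TAC they were at 0.01, -0.34 and 0.26, none of them past the threshold. The TAC effect on the BCAA-free diet minus that on the control diet was above 0 in all 3. It was 0.75 ± 0.23 for Lars2, 0.49 ± 0.20 for Gm42418 and 0.97 ± 0.32 for Gm15564, again none past the threshold. How many of the reads counted as Lars2 come from its own message was not tested.

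**Figure D2:**
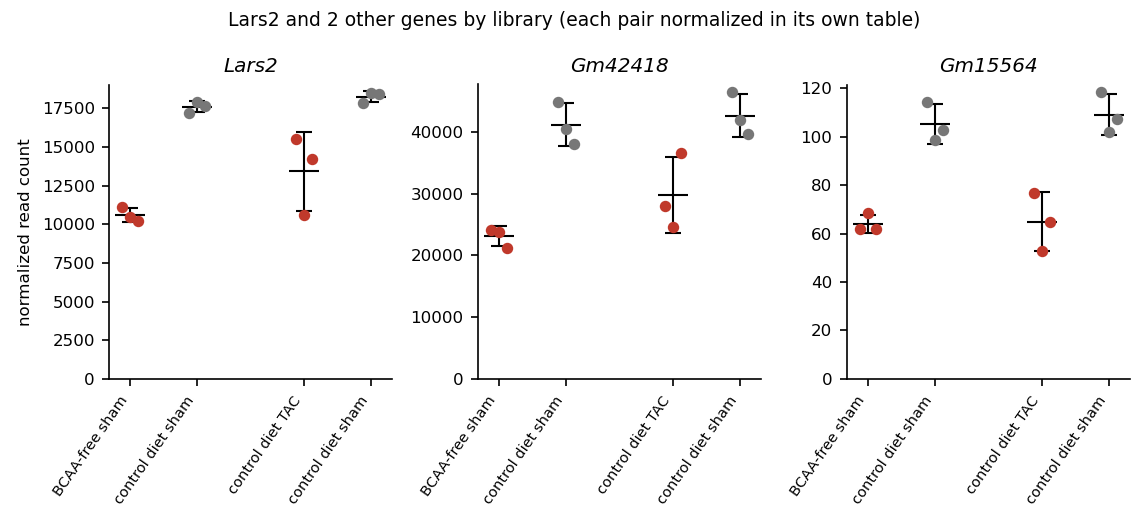
Normalized read count of Lars2, Gm42418 and Gm15564 in BCAA-free sham against control diet sham hearts and in control diet TAC against control diet sham hearts; points are libraries, bars the mean and SD of 3, and each pair is normalized in its own table. In the sham comparison the 3 BCAA-free libraries of Lars2, 10218 to 11097, sit below the 3 control diet libraries, 17237 to 17931, and Gm42418 and Gm15564 are lower in the same libraries.

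Yars2 and the mitochondrial alanine enzyme Aars2 had the next smallest p-values in sham hearts. Yars2 had 637, 581 and 665 normalized counts in BCAA-free sham hearts, against 802, 675 and 884 in control diet sham hearts (-0.32 ± 0.12, adjusted p = 0.232). Aars2 had 954, 1056 and 1112 in BCAA-free sham hearts, against 1228, 1255 and 1187 in control diet sham hearts (-0.24 ± 0.1, adjusted p = 0.273). Neither overlapped between the diets and neither passed. Cars2 and Fars2 were placed alike, at -0.21 ± 0.11 (adjusted p = 0.355) and -0.22 ± 0.11 (adjusted p = 0.356).

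After TAC, 5 mitochondrial enzymes were higher on the BCAA-free diet, and the cytosolic enzymes that passed the test went in both directions. The mitochondrial median was 0.17, with 13 of 16 above 0 and 11 without overlap above the control diet samples, as 25.2% of all genes were. With GC and length trends removed it was 0.33, with 16 of 16 above 0. The cytosolic median was 0.02, with 11 above and 10 below 0. This comparison called 34.2% of all 15872 genes tested, higher calls being 16.5% and lower calls 17.7%, and it called 10 of the 37 synthetases, a smaller share than that background. Of the mitochondrial genes 5 of 16 were called, all higher, and of the cytosolic genes 3 were higher and 2 lower. With any 1 library left out 4 to 7 of the 37 were called, the 4 being without BCAA-free TAC replicates 1 or 3.

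Sars2 had the smallest p. It had 599, 659 and 625 normalized counts in BCAA-free TAC hearts, against 423, 375 and 405 in control diet TAC hearts, and was higher by 0.65 ± 0.092 (adjusted p = 0.00198). Cars2 had 1404, 1353 and 1527 in BCAA-free TAC hearts, against 1119, 893 and 1167 in control diet TAC hearts (0.44 ± 0.11, adjusted p = 0.0155). Fars2 had 2173, 2074 and 2228 in BCAA-free TAC hearts, against 1821, 1437 and 1657 in control diet TAC hearts (0.40 ± 0.095, adjusted p = 0.0122). The groups did not overlap in these 3 genes, and control diet TAC replicate 2 was the lowest sample of each. The other mitochondrial genes called were Yars2 (0.32 ± 0.097, adjusted p = 0.0333), with 894, 775 and 910.1 counts in BCAA-free TAC hearts against 682, 640.5 and 744 in control diet TAC hearts, and Vars2 (0.35 ± 0.1, adjusted p = 0.029). Leaving out each library in turn kept the calls of Sars2 and Fars2 in all 6 fits and that of Cars2 in 5, without BCAA-free TAC replicate 3 being the exception, while Yars2 and Vars2 were called in 2 of 6.

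Among the cytosolic enzymes, Kars stood out with 4797, 4727 and 4882 normalized counts in BCAA-free TAC hearts, against 3641, 3324 and 3691 in control diet TAC hearts. It was higher by 0.44 ± 0.075 (adjusted p = 0.00369) and was called in all 6 fits that left out a library. Gars, the other gene that serves both compartments, had 2197, 2135 and 2417 counts in BCAA-free TAC hearts, against 2129, 2406 and 2235 in control diet TAC hearts, overlapping throughout (-0.00 ± 0.082, adjusted p = 0.97). Farsa, the catalytic chain of the cytosolic phenylalanine enzyme, had 1041, 1026 and 1014 in BCAA-free TAC hearts, against 899, 819.9 and 853 in control diet TAC hearts (0.26 ± 0.076, adjusted p = 0.0279). The glutamine enzyme Qars had 2463, 2326 and 2502 in BCAA-free TAC hearts, against 2094, 2013 and 2178 in control diet TAC hearts (0.21 ± 0.072, adjusted p = 0.0468). In both, every BCAA-free sample lay above every control diet sample.

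The 2 cytosolic genes that fell were Eprs and Yars. Eprs had 3771, 3981 and 3838 normalized counts in BCAA-free TAC hearts, against 4523, 4369.5 and 4555 in control diet TAC hearts (-0.21 ± 0.07, adjusted p = 0.0422). Yars had 998, 1083 and 1184 in BCAA-free TAC hearts, against 1269, 1335 and 1269 in control diet TAC hearts (-0.25 ± 0.085, adjusted p = 0.0476). In both genes the groups did not overlap, as in 25.6% of all genes with lower BCAA-free values. Yars is one of the 5 members with the C/EBP-ATF response element, and the only one of those 5 called in any comparison. Farsa, Eprs and Yars kept their calls in 1 of 6 fits that left out a library and Qars in 0 of 6. With the GC and length trends removed Eprs, whose GC content is 44.0%, turned to 0.05 (adjusted p = 0.635).

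Cell markers also moved with the diet after TAC. The summed cardiomyocyte markers ran from 3400461 to 3467091 in BCAA-free TAC hearts, against 2359558 to 2830681 in control diet TAC hearts, with 5 of 10 genes called higher and 1 lower. The summed fibroblast markers ran from 25368 to 32050 in BCAA-free TAC hearts, against 55637 to 135209 in control diet TAC hearts, with 7 of 8 genes called lower, and the 8 macrophage markers summed to 7710.4 to 9057 against 11693 to 14217. The correlation with GC content was 0.07 to 0.27 in BCAA-free TAC libraries, against -0.30 to -0.09 in control diet TAC libraries. The part of either in the synthetase result was not tested. Without control diet TAC replicate 2 the mitochondrial median was 0.12, with 12 of 16 genes above 0. Scaling to library totals moved the median of all genes to -0.13, the mitochondrial median to 0.04 and the cytosolic median to -0.11.

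The effect of TAC differed between the diets for 4 mitochondrial enzymes. The interaction of diet and surgery, that is the log2 TAC effect on the BCAA-free diet minus that on the control diet, had a median of 0.39 over the mitochondrial genes, with 14 of 16 above 0. It was 0.01 over the cytosolic genes, with 11 above and 10 below, and -0.03 over all 15195 genes tested, 47.4% of which were above 0. Of the 37 genes 4 were called, all mitochondrial and all positive, where 8.65% of all genes were called and 4.92% with a positive sign.

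Sars2 had an interaction of 0.71 ± 0.14 (adjusted p = 0.0151), made of 0.28 on the BCAA-free diet and -0.43 on the control diet. For Cars2 it was 0.65 ± 0.15 (adjusted p = 0.025), from 0.05 on the BCAA-free diet and -0.59 on the control diet. Fars2 reached 0.63 ± 0.15 (adjusted p = 0.0265), from 0.20 on the BCAA-free diet and -0.43 on the control diet. Yars2 reached 0.64 ± 0.16 (adjusted p = 0.0306), from 0.12 on the BCAA-free diet and -0.52 on the control diet. In each of the 4 genes the control diet TAC samples lay below the control diet sham samples without overlap, as in 17.4% of all genes. The interaction test that picked the 4 used these same libraries, so this describes the calls and adds nothing to them. In Cars2 and Yars2 the BCAA-free samples overlapped between surgeries, with 1355, 1303 and 1473 counts of Cars2 in BCAA-free TAC hearts against 1234, 1336 and 1409.6 in BCAA-free sham hearts. For Yars2 the counts were 863, 746 and 878 in BCAA-free TAC hearts, against 776, 708 and 809.5 in BCAA-free sham hearts.

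**Figure D3:**
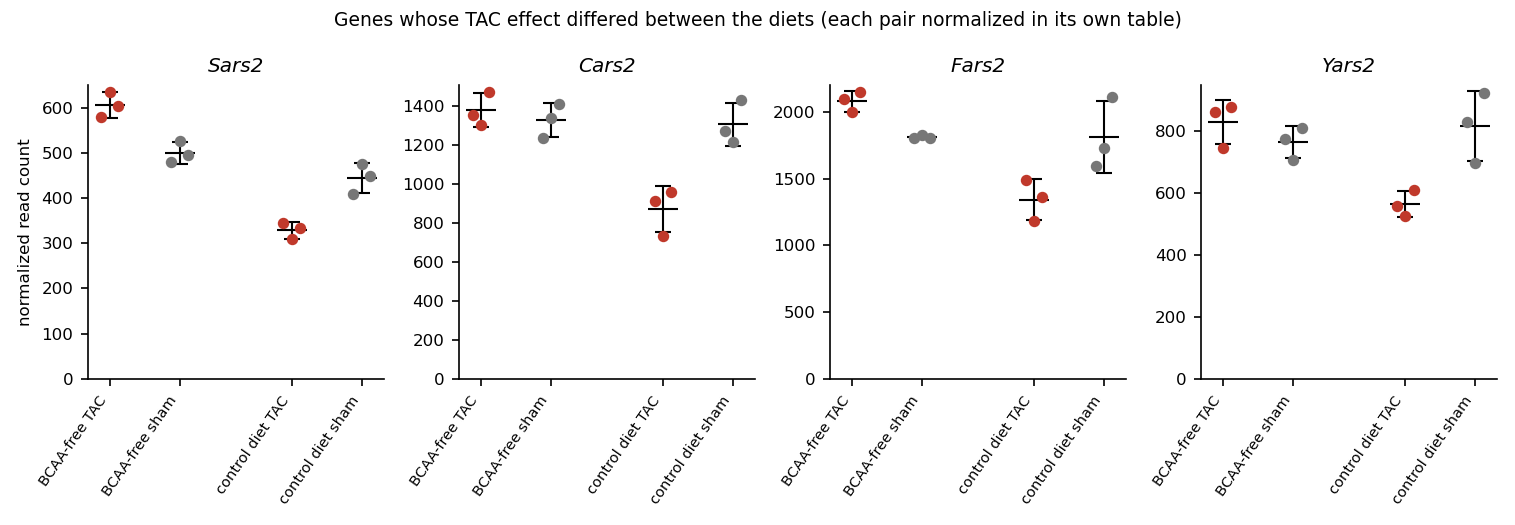
Normalized read count of Sars2, Cars2, Fars2 and Yars2 by group; points are libraries, bars the mean and SD of 3, and the BCAA-free pair and the control diet pair are normalized in separate tables, so heights are comparable within a pair only. In every panel the control diet TAC libraries sit below the control diet sham libraries, while the BCAA-free TAC libraries sit level with or above the BCAA-free sham libraries.

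These interaction calls differ in how firmly they stand. Sars2 was called whichever of the 12 libraries was left out (adjusted p 0.0114 to 0.0467), but its value was 0.43 and its adjusted p 0.085 with GC and length trends removed. Cars2 lost its call without BCAA-free sham replicates 1 or 2 or BCAA-free TAC replicates 1 or 3 (adjusted p 0.0533 to 0.0714). Fars2 and Yars2 lost theirs without those same 4 libraries and without control diet TAC replicate 2 (0.0535 to 0.0714 for Fars2 and 0.0637 to 0.0815 for Yars2). Yars2 was also not called in 1 of the 9 alternatives that kept all libraries, while Cars2 and Fars2 were called in all 9. Without control diet TAC replicate 2 the mitochondrial median of the interaction was 0.26. All 10 cardiomyocyte markers were also above 0 in the interaction, with a median of 0.29, and the fibroblast markers had a median of -0.77, and their part in the result was not tested. Scaling to library totals moved the median of all genes to -0.20, the mitochondrial median to 0.22 and the cytosolic median to -0.16. The span of Fars2 overlaps that of Lyrm4 over 115 bases and that of Nrn1 over 920 bases, and here too exons were not checked. In the interaction Lyrm4 was at 0.33, Nrn1 at -0.11 and Naxd, the neighbour of Cars2, at 0.36, none past the threshold. Naxd was called higher for the diet after TAC (0.25), as were 16.5% of all genes. The part of these overlaps in the counts of Fars2 and Cars2 was not tested.

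**Figure D4:**
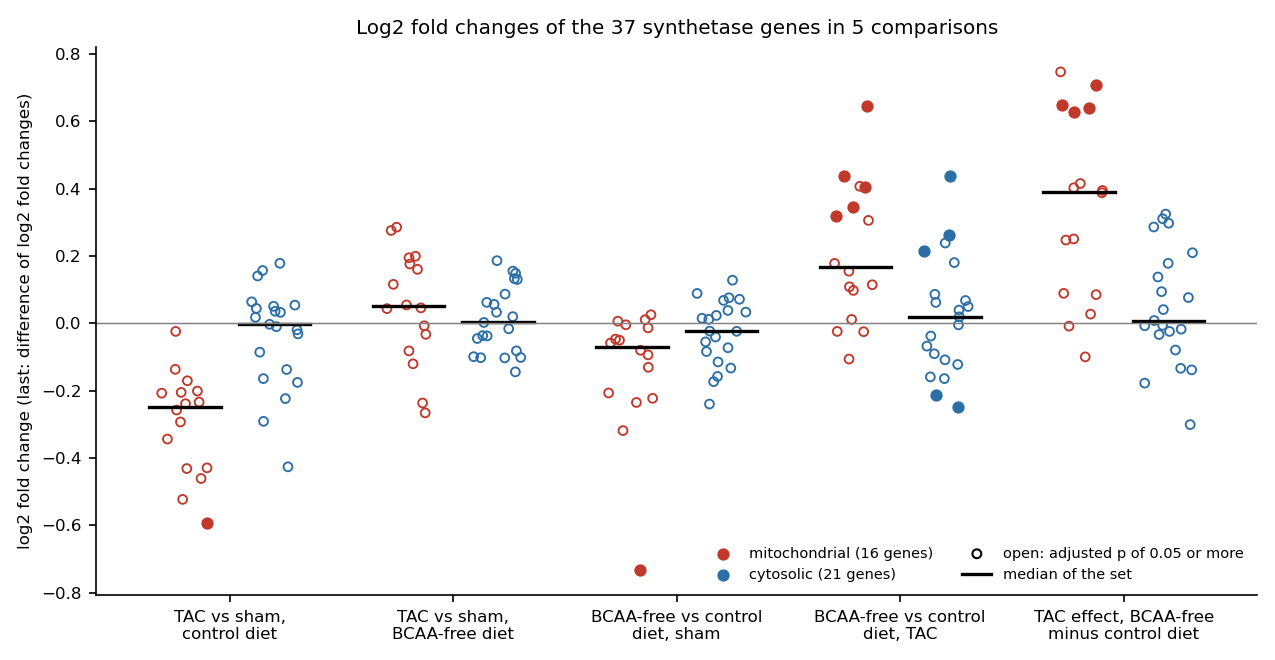
Log2 fold changes of the 16 mitochondrial (red) and 21 cytosolic (blue) synthetase genes in 4 comparisons and, last, the difference of the TAC effect between diets; each point is 1 gene, filled where its adjusted p is under 0.05, and bars are medians. The mitochondrial medians run from -0.25 for TAC on the control diet to 0.39 for the interaction, while the cytosolic medians lie between -0.02 and 0.02.

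The enzymes for the 3 amino acids that the diet lacked had medians close to those of the other enzymes. Their median fold change and that of the other 31 genes were -0.11 and -0.16 between surgeries on the control diet, and 0.07 and 0.03 between surgeries on the BCAA-free diet. Between diets the medians were -0.01 and -0.06 in sham hearts, 0.05 and 0.09 in TAC hearts, and 0.05 and 0.14 in the interaction. The order of these medians rested in part on control diet sham replicate 3, where the mean log2 deviation of the 6 enzymes minus that of the others was -0.19, while it was 0.06 and 0.09 in control diet sham replicates 1 and 2. Without it the medians were -0.14 and -0.12 between surgeries on the control diet, -0.09 and -0.04 between diets in sham hearts, and 0.12 and 0.08 in the interaction, each in the opposite order. The 6 were then split by compartment. Under TAC on the control diet the 3 cytosolic enzymes had a median of -0.01 and the 3 mitochondrial ones -0.23, next to -0.26 for the other mitochondrial genes. For the interaction the medians were -0.01 and 0.39, with 0.39 again for the other mitochondrial genes.

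The cytosolic leucine enzyme Lars, which also acts as a leucine sensor upstream of mTORC1, had 1622, 1691 and 1587 normalized counts in BCAA-free sham hearts, against 1641, 1583 and 1432 in control diet sham hearts. The samples overlapped, and the difference of 0.08 ± 0.098 had a 95% interval of -0.14 to 0.29 (adjusted p = 0.742). After TAC it had 1935, 2103 and 2081 in BCAA-free hearts, against 2042, 1857 and 1940.1 in control diet hearts (0.07 ± 0.075, interval -0.10 to 0.24, adjusted p = 0.514). The cytosolic isoleucine enzyme Iars, which carries the response element, had 1842, 2035 and 2236 in BCAA-free sham hearts, against 2125, 2137 and 2009 in control diet sham hearts (-0.04, interval -0.27 to 0.19, adjusted p = 0.875). After TAC it had 2216, 2543 and 2435 in BCAA-free hearts, against 2574, 2555 and 2692 in control diet hearts. Each BCAA-free sample was lower than each control diet sample there, by -0.12 ± 0.078 on average (interval -0.30 to 0.05, adjusted p = 0.249). The cytosolic valine enzyme Vars had 1269, 1244 and 1331 in BCAA-free sham hearts, against 1321, 1452 and 1022 in control diet sham hearts (0.03 ± 0.13, interval -0.25 to 0.32, adjusted p = 0.921), and differed by 0.04 ± 0.1 after TAC (adjusted p = 0.789).

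For TAC itself, none of the 3 had even an unadjusted p under 0.05 on either diet (limma). Lars differed by -0.02 ± 0.072 on the BCAA-free diet and -0.01 ± 0.097 on the control diet, Iars by -0.10 ± 0.087 and -0.02 ± 0.091, and Vars by 0.19 ± 0.094 and 0.18 ± 0.13. The smallest adjusted p of these 6 was 0.249.

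The mitochondrial members of the 3 pairs differed among themselves. Vars2 was called for the diet after TAC, with 1381, 1564 and 1432 normalized counts in BCAA-free TAC hearts against 1288, 1009 and 1161 in control diet TAC hearts, and its TAC effect was 0.16 ± 0.082 on the BCAA-free diet (adjusted p = 0.251) and -0.23 ± 0.12 on the control diet (adjusted p = 0.243). The isoleucine enzyme Iars2 had 3208, 2892 and 3192 in control diet TAC hearts, against 3754, 3447 and 3509.9 in control diet sham hearts, without overlap (-0.21 ± 0.099, adjusted p = 0.212). It was also without overlap lower after TAC on the BCAA-free diet (-0.12 ± 0.068, adjusted p = 0.302) and had an interaction of 0.08 ± 0.11 (adjusted p = 0.653). Lars2 had the largest interaction estimate of the 37, 0.75 ± 0.23 (adjusted p = 0.0559), which was called in 3 of the 9 alternatives that kept all libraries. It had a wide spread among BCAA-free TAC hearts, with 19393, 11912 and 16789 counts against 13513, 12754 and 12437 in BCAA-free sham hearts (0.29 ± 0.16, adjusted p = 0.332). BCAA-free TAC replicate 2 was lower than all 3 sham samples, and without it the difference was 0.48 (adjusted p = 0.0271). That library was also below all 3 sham samples in Gm42418 (23390 against 25849 to 29459) and in Gm15564 (65.8 against 75.2 to 83.3). The interaction estimates of Gm42418 and Gm15564 were above 0 like that of Lars2, and the doubt about the reads of Lars2 holds here too. After TAC the diets did not separate Lars2, with 20095, 12367 and 17404 counts in BCAA-free hearts against 19004, 12858 and 17291 in control diet hearts (0.01 ± 0.2, adjusted p = 0.972).

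**Figure D5:**
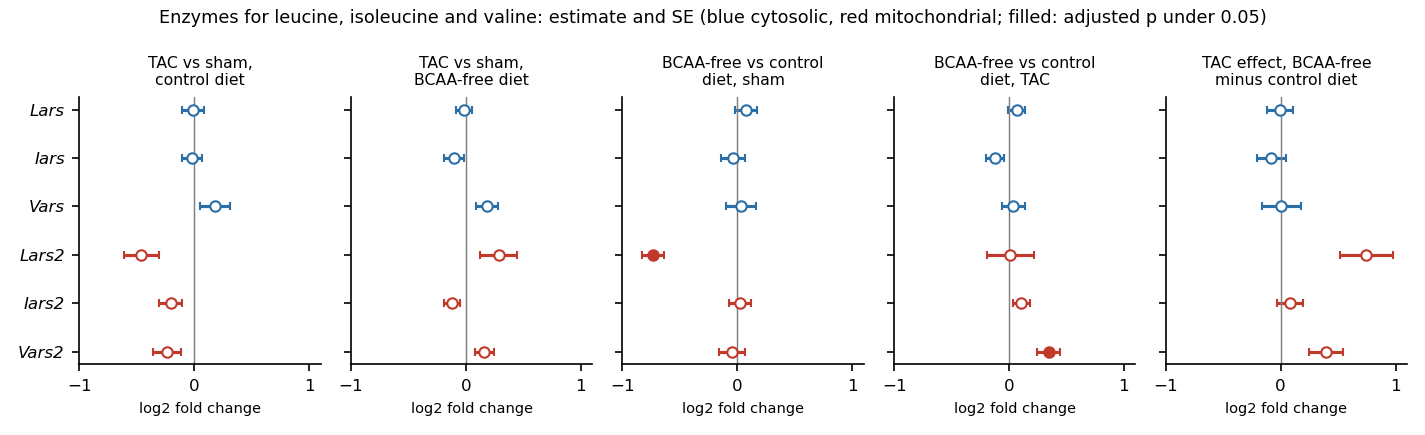
Log2 fold change and SE of the cytosolic (blue) and mitochondrial (red) enzymes for leucine, isoleucine and valine in 4 comparisons and, last, the difference of the TAC effect between diets; filled points have an adjusted p under 0.05. The cytosolic estimates lie between -0.12 and 0.19, and the filled points are Lars2 for the diet in sham hearts (-0.73) and Vars2 for the diet after TAC (0.35).

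Within the cytosol, the 8 enzymes of the multisynthetase complex, Kars, Eprs, Lars and Iars among them, had a median of -0.05 for TAC on the control diet, 0.06 for the diet after TAC and 0.02 in the interaction, against 0.03, -0.00 and 0.01 for the 13 enzymes outside it. By structural class, which was not tested, the 9 class I and the 7 class II mitochondrial members had medians of -0.29 and -0.24 for TAC on the control diet, and of 0.05 and 0.18 between the surgeries on the BCAA-free diet. Their medians were -0.08 and -0.06 for the diet in sham hearts, 0.11 and 0.18 for the diet after TAC, and 0.39 and 0.40 in the interaction. The 3 scaffold proteins of the complex followed with 1 call, Aimp2 in the interaction (0.51 ± 0.15, adjusted p = 0.0462), where 4.92% of all genes were called with a positive sign.

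Genes that act next to the synthetases were read from lists. Of the 11 charging helpers and editing factors, 10 were below 0 for TAC on the control diet (median -0.32), and Aarsd1, which removes wrongly attached serine from alanine transfer RNA, fell by 0.63 ± 0.15 (adjusted p = 0.0491). Of all genes 50.6% were below 0 there and 1.09% were called lower. For the diet after TAC 10 of 11 were above 0 (median 0.27) and 5 were called higher, where 16.5% of all genes were. These were Aarsd1 (0.63), the mitochondrial amidotransferase subunit Gatb (0.49), the D-aminoacyl deacylases Dtd1 (0.41) and Dtd2 (0.47), and Pstk (0.50), the kinase that prepares selenocysteine transfer RNA. Pstk was the one called in the interaction (0.72 ± 0.16, adjusted p = 0.0195), where the median of the 11 was 0.40. Positive calls there were 4.92% of all genes. Of 10 genes for elongation factors of translation, 4 were called higher for the diet after TAC, beside the same 16.5%: Eef1d (0.45), Eef2 (0.46), Eef1a2 (0.34) and the mitochondrial Tufm (0.32). For TAC on the control diet, 9 of the 10 were below 0, the smallest p-values being those of Eef1d (-0.40, adjusted p = 0.066) and Tufm (-0.42, adjusted p = 0.070). In the interaction Tufm (0.64), Eef1d (0.48) and the mitochondrial Tsfm (0.42) were called, where 4.92% of all genes were called with a positive sign.

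The genes of the amino acid response did not move one way. Of 10 genes of the GCN2 and eIF2 arm, Impact, an inhibitor of GCN2, fell with TAC on the BCAA-free diet (-0.64, adjusted p = 0.0308). Lower calls there were 2.89% of all genes. The eIF2 kinase PKR, encoded by Eif2ak2, and the phosphatase subunit Ppp1r15b were called lower for the diet after TAC, at -0.90 and -0.42, and both were negative in the interaction, at -0.60 and -0.56, as was Impact at -0.67. Lower calls were 17.7% of all genes for the diet after TAC, and negative calls were 3.73% in the interaction. In sham hearts the diet gave its smallest p in that arm to Impact, at 0.51 (adjusted p = 0.102). Of 32 ATF4 targets outside the synthetases, 1 was called for the diet in sham hearts, the mitochondrial folate enzyme Aldh1l2 (-1.23, adjusted p = 0.0212), where 0.375% of all genes were called lower. Their median was 0.03, and 14 of the 32 had an unadjusted p under 0.05, where 16.6% of all genes did. After TAC 12 of 32 were called higher and 5 lower, beside 16.5% and 17.7% of all genes, with a median of 0.10. The transcription factor Cebpb (2.20), the endoplasmic reticulum stress gene Herpud1 (1.17), the transaminase Got1 (0.60), the secreted glycoprotein Stc2 (0.56) and the cystathionine lyase Cth (1.48) were higher, while Aldh18a1 (-0.73), of proline synthesis, was lower. For TAC on the control diet the large neutral amino acid transporter Slc7a5 (1.17) and the stress gene Nupr1 (1.58) were higher and Aldh1l2 (-1.22) was lower, out of 31. Of all genes 2.95% were called higher there and 1.09% lower. In the interaction, Cebpb (2.20), Herpud1 (0.83), Got1 (0.53) and the serine hydroxymethyltransferase Shmt2 (0.46) were called positive and Slc7a5 (-0.92) negative, beside 4.92% and 3.73% of all genes. Of 8 leucine-sensing genes Sesn3 (-0.62) was called lower for the diet after TAC, and Flcn (0.45) and Rragb (0.62) higher. Of all genes 17.7% were called lower there and 16.5% higher. Rragd (-0.35) was called lower after TAC on the BCAA-free diet, as were 2.89% of all genes.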

How the data were processed

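The 12 heart samples, 3 per group, were profiled by poly(A) RNA sequencing. Per the submitters' processing notes the tools were Trimmomatic 0.36, STAR 2.5.2b, Subread 1.5.2 and DESeq2, with GRCm38 (mm10). The 4 deposited tables hold, per the file headers, each gene's normalized value in 6 libraries. The authors made this signal by dividing gene counts by 1 size factor per library and table. Whole read counts were recovered from the deposited values for all of them within a tolerance of 0.01. The authors' deposited log2 fold changes and p-values were not used.

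Values were analysed within each table as log2(value + 1) for genes with a mean of at least 10. Differences were tested with limma 3.58.1 (trend and robust options, R 4.3.3), and the Benjamini-Hochberg adjustment covered every gene in the fit, with a call at 0.05. The interaction used the 12 libraries of both TAC tables together. The procedure was tested on simulated data, where the interaction recovered fewer of the smaller changes than the other comparisons did, and the share required of it was set lower after that was seen. With 3 samples against 3, an exact permutation test of a single gene cannot go below 0.1, so none was run. Alternatives were TMM or total scaling, other filters, the replicate number as a block, a pseudocount of 10, edgeR 4.0.16 and DESeq2 1.42.0 on recovered counts, 1 fit over 12 libraries, removal of each library's GC and length trends (splines with 4 degrees of freedom), each library left out, and Gars and Kars left out of the cytosolic set. Gene positions and lengths come from a GRCm38 annotation.

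Named members are those called in any comparison, the 6 enzymes for leucine, isoleucine and valine, Gars and Kars, and the 3 smallest p-values per comparison. From each list around the synthetases, called genes are named, up to 6, or otherwise the 2 with the smallest p. The members and lists were chosen with earlier results of these data known. The libraries' counts differed from each other by more than sampling noise, so none was counted as a repeat.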

Additional observations from a re-analysis of the deposited data

Results flagged for a closer look

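There were 4 mitochondrial enzymes whose TAC effect differed between the diets by the interaction test (limma, Benjamini-Hochberg). The difference was 0.71 for Sars2, 0.65 for Cars2, 0.63 for Fars2 and 0.64 for Yars2 on the log2 scale, with the adjusted p-values given with the results. They are 4 of 37 genes, where 8.65% of all genes were called. Leaving out any of 4 single libraries ended the call of Cars2, and any of 5 ended those of Fars2 and Yars2. Yars2 was called in 8 of the 9 alternatives that kept all libraries. Sars2 was called without each of the 12 libraries, and its adjusted p was 0.085 with GC and length trends removed. Cardiomyocyte and fibroblast markers moved in the same libraries, and their part was not tested. The test for a single outlying sample needs at least 4 samples in a group, so it was not run on these groups of 3.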

How the results depend on the processing

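Calls on the BCAA-free diet after sham and TAC on the BCAA-free diet kept their counts of 1 and 0 synthetases in every alternative except some fits without a library. For TAC on the control diet the count of 1 became 2 with the replicate block, 5 with DESeq2, 6 with limma on 12 libraries and 5 with GC and length trends removed. For the diet after TAC the count of 10 became 5 with the replicate block and 6 with limma on 12 libraries. The replicate block gave 5 calls in place of 4 in the interaction. Over the 9 alternatives there that kept all libraries, Lars2 was called in 3, Aars2 in 2 and Eprs in 1. Sars2 and Yars2 were each called in 8 of the 9. Over all genes, same-numbered samples did not deviate together (correlations -0.18 to 0.08), though a pairing limited to some genes would not show there. The cause of these shifts was not tested. All genes called for TAC on the control diet ranged from 0 without control diet TAC replicate 3 to 1061 without replicate 1. The fit over 12 libraries is the interaction fit itself and gives no second value there.

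With GC and length trends removed, the cytosolic minus mitochondrial median was 0.10 in place of 0.05 for the diet in sham hearts and -0.28 in place of -0.15 after TAC. The leucine, isoleucine and valine enzymes minus the others came to -0.00366 for TAC on the BCAA-free diet (0.04 otherwise), -0.000211 for the diet after TAC (-0.03 otherwise) and 0.043 for the interaction (-0.09 otherwise). In the same setting, for the diet after TAC, Eprs turned to 0.048 and Mars2 to 0.38 (adjusted p = 0.0234; -0.03 otherwise). The cause was not tested.

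With single libraries left out, the synthetases called ranged from 0 to 1 for TAC on the control diet, 0 to 1 for TAC on the BCAA-free diet, 0 to 1 for the diet in sham hearts, 4 to 7 for the diet after TAC and 1 to 5 for the interaction. The cytosolic minus mitochondrial median ranged from 0.17 to 0.32, -0.09 to -0.03, 0.015 to 0.12, -0.18 to -0.11 and -0.43 to -0.23 in that order, keeping its sign in each. The difference between the leucine, isoleucine and valine enzymes and the others ranged from -0.02 to 0.07, -0.020 to 0.059, -0.06 to 0.10, -0.059 to -0.0015 and -0.15 to 0.046. Of 1530 single-gene values under all alternatives, 69 lost a call and 24 gained one in the same direction. The sign changed in 89, of which 87 were called in neither fit and 2, Eprs and Mars2 above, in one of them. Every member averaged at least 10 normalized counts in every table, so depth set the precision of the values and not whether a member was detected.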
